A study of Mus musculus with 6 samples.

Results

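miR-124 and miR-9 were followed here as their 4 mature products, mmu-miR-124-3p, mmu-miR-124-5p, mmu-miR-9-5p and mmu-miR-9-3p, out of 1900 mature miRNA names listed for each library. They were found by name, with every locus and both arms of the hairpin included, which gave 12 rows of counts from 3 hairpin loci of miR-124 and 3 of miR-9. The 6 small RNA libraries came from hippocampi of male C57BL/6 mice that were 3 months old. In the 3 Dicer1-ifKO libraries the mice were Dicer1 flox/flox and carried CaMKIIa-creERT2, a recombinase that tamoxifen switches on and that is driven by a promoter of excitatory forebrain neurons. In the 3 WT libraries the mice were also Dicer1 flox/flox but had no recombinase. Mice of both genotypes received tamoxifen and were killed 3 weeks later. Each library held an equal pool of RNA from 3 mice, so 9 mice of each genotype entered the libraries and p-values measure the spread between pools. Glia, vessels, interneurons and any neurons without recombination keep Dicer1 in this model and contribute RNA to every library.

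miRNAs are cut from a hairpin precursor by the ribonuclease Dicer1, which leaves a duplex of a 5p and a 3p arm. One arm is usually kept in an Argonaute protein as the guide, and the other, the passenger arm, is mostly degraded. miR-124 is the classical miRNA of differentiated neurons, and its 3p arm is the guide that represses genes of non-neuronal cells such as Ptbp1. miR-9 acts in neural progenitors and in neurons, and both of its arms are known to act as guides, the 5p arm on the repressor Rest and the 3p arm on its partner Rcor1 (CoREST).

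Of the 4 names, 2 had an entry in the RefSeq miRNA sequences (GRCm38.p6), miR-9-5p and miR-9-3p, and all 6 of their locus rows had the coordinates of that table. The mature miR-9 arms are shown first, with the seed (bases 2 to 8, the part that pairs with targets) in capitals, because the 2 arms carry different seeds and so different targets.
miR-9-5p: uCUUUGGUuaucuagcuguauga
miR-9-3p: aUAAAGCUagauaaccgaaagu
The seed CUUUGGU of miR-9-5p and the seed UAAAGCU of miR-9-3p were found in 0 other mature miRNAs of that table. The 3 hairpins are shown because they carry the same 2 arms, which stand in capitals, and differ only outside them.
Mir9-1: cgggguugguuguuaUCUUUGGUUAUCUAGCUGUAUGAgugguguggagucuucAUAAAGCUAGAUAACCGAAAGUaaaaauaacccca
Mir9-2: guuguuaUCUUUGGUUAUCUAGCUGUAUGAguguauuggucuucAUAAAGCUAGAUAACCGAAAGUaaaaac
Mir9-3: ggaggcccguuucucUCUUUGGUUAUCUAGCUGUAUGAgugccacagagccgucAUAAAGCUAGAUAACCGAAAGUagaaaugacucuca
The loops between the arms were 16, 14 and 16 bases long in Mir9-1, Mir9-2 and Mir9-3, and they differ in sequence. Since the arms are the same in all 3, a read of a mature miR-9 arm cannot be assigned to 1 locus.

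In RefSeq coordinates (GRCm38.p6) with GENCODE M21 genes of the same build, Mir9-1 lies on the plus strand of chromosome 3 at 88215598 to 88215686, inside an intron of Gm3764, a long noncoding RNA. Mir9-2 lies on the plus strand of chromosome 13 at 83738814 to 83738885, in an exon of the long noncoding RNA C130071C03Rik. Mir9-3 lies on the plus strand of chromosome 7 at 79505264 to 79505353, in an intron of its host Mir9-3hg. The miR-124-3p rows lie on the plus strand of chromosome 2 at 180894083 to 180894102 (Mir124a-3, outside any host gene), of chromosome 3 at 17795723 to 17795742 (Mir124a-2, in an intron of Mir124-2hg) and of chromosome 14 at 64590709 to 64590728 (Mir124a-1, in an exon of Mir124a-1hg). The miR-124-5p rows lie upstream in the same hairpins, at 180894045 to 180894066 on chromosome 2, 17795686 to 17795707 on chromosome 3 and 64590670 to 64590691 on chromosome 14.

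The loci of a name held nearly equal counts. For miR-9-5p the lowest of the 3 loci held 97.45% to 99.22% of the highest in every library, and for miR-124-3p 96.49% to 99.75%. No library departed from an equal split of miR-9-5p (chi-square p of at least 0.065) or of miR-124-3p (chi-square p of at least 0.18). In the thinner arms the lowest locus held 88.5% to 95.05% of the highest for miR-9-3p and 50% to 82.76% for miR-124-5p, again with no departure from an equal split (chi-square p of at least 0.23). Which locus was transcribed cannot be read from these rows, and the rows of a name were summed. The only transcript row around a member was C130071C03Rik, the host of Mir9-2. It held 16153, 15826 and 16314 counts in Dicer1-ifKO replicates 1, 2 and 3, and 15121, 14747 and 19171 in WT replicates 1, 2 and 3. The rows of the miR-9 arms inside it summed to within 8 counts of it in every library. Its log2 change of 0.0027 ± 0.16 (SE) is that of miR-9-5p counted again.

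The libraries held 2318205 to 2739366 miRNA counts in Dicer1-ifKO and 2724752 to 3179363 in WT. Counts were scaled to CPM, a common total over all features, with edgeR's TMM factors. As the host row of Mir9-2 shows, some reads enter more than 1 feature, so CPM is a relative scale and not a share of reads. The span of Dicer1 itself held 37, 32 and 35 counts in Dicer1-ifKO replicates 1, 2 and 3 and 45, 33 and 47 in WT replicates 1, 2 and 3, which are fragments over the whole gene and check no genotype.

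The major arms were among the abundant miRNAs of this tissue and the minor arms were not. miR-9-5p stood at 1019 ± 139 CPM in Dicer1-ifKO and 1013 ± 185 CPM in WT (SD, n = 3 each), and took place 15 of all miRNAs by mean level in both. miR-124-3p stood at 347 ± 54.4 CPM in Dicer1-ifKO and 355 ± 54.1 CPM in WT, at place 25 in Dicer1-ifKO and place 28 in WT. miR-9-3p followed with 19.4 ± 5.32 CPM in Dicer1-ifKO and 15.02 ± 1.18 CPM in WT, at places 140 and 170 in the same order. miR-124-5p was the lowest, with 0.844 ± 0.108 CPM in Dicer1-ifKO and 1.61 ± 0.411 CPM in WT, at places 374 and 327 in the same order. The order miR-9-5p, miR-124-3p, miR-9-3p, miR-124-5p held in each of the 6 libraries, and no neighbours in it overlapped. The order is one of counts and not of molecules.

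**Figure D1:**
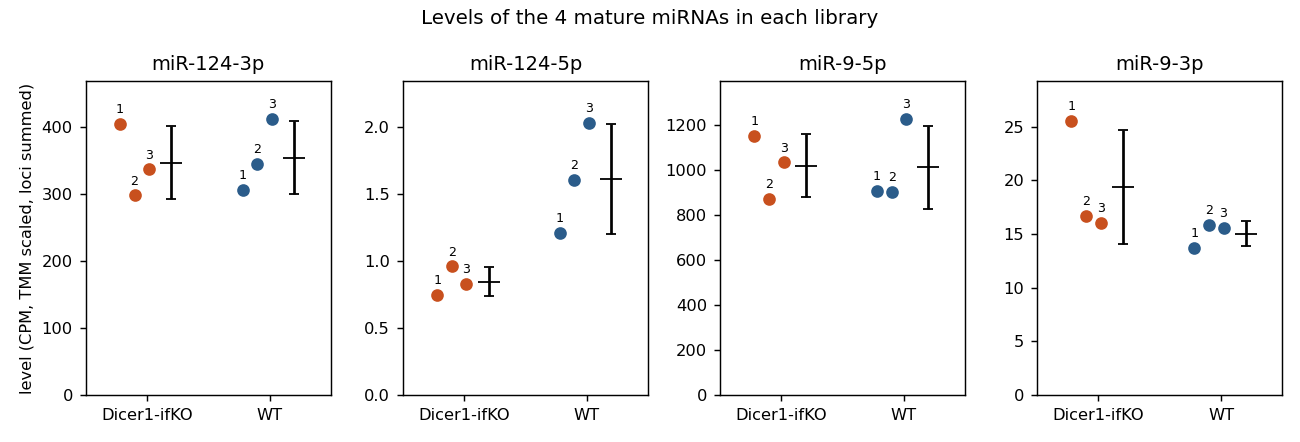
Level of each mature miRNA in CPM (y axis from 0, loci summed, own scale in each panel) in the 3 Dicer1-ifKO libraries (orange) and the 3 WT libraries (blue), numbered by replicate, with mean and SD in black. The genotypes overlap for miR-124-3p and miR-9-5p and lie apart for miR-124-5p (lower in Dicer1-ifKO). For miR-9-3p they lie apart by a narrow gap that depends on the scaling (higher in Dicer1-ifKO).

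The comparison of the genotypes asks how far the mature products of these hairpins changed 3 weeks after recombination of Dicer1. Over all miRNAs, 35 of 509 tested names were lower in Dicer1-ifKO (6.88%) and 0 were higher (0%) by edgeR's quasi-likelihood test with Benjamini-Hochberg adjustment over 6502 tested features, at an adjusted p of 0.05. At an unadjusted p of 0.05, 163 names were lower and 10 higher, and DESeq2 called 37 lower and 0 higher. Over all features 52 of 6502 were called (0.8%). The count of called miRNAs was moved by every library: it was 18, 1 and 1 without Dicer1-ifKO replicates 1, 2 and 3, and 63, 20 and 12 without WT replicates 1, 2 and 3. Relative to the miRNA pool, with miRNA rows fitted alone, 35 of 513 names were lower (6.82%) and 17 higher (3.31%). The median log2 change of the tested miRNA names was -0.25, and 76.4% lay below 0. All 4 members passed the filter on low counts, and 0 of the 4 were called in either direction by edgeR or by DESeq2. At an unadjusted p of 0.05, 1 of the 4 was lower, miR-124-5p. In bulk tissue, fewer cells of a type and less of a miRNA per cell cannot be told apart.

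The neuronal guide mmu-miR-124-3p did not separate the genotypes. It had 16868, 15859 and 15917 counts in Dicer1-ifKO replicates 1, 2 and 3, and 14958, 16602 and 19145 counts in WT replicates 1, 2 and 3, which scaled to 406, 298 and 337 CPM in Dicer1-ifKO and 306, 346 and 413 CPM in WT. The libraries of the genotypes were interleaved, with WT replicate 3 and Dicer1-ifKO replicate 1 the highest. The log2 change was -0.03 ± 0.16 (SE, edgeR adjusted p = 0.99), with a 95% interval from -0.38 to 0.31. Its sign was not stable: it was positive under every other scaling, and up to 0.23 when the miRNA rows set the scaling. The interval includes the median change of all tested miRNAs, -0.25.

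The major miR-9 arm did not separate the genotypes either. mmu-miR-9-5p had 47842, 46435 and 48794 counts in Dicer1-ifKO replicates 1, 2 and 3, and 44402, 43375 and 56837 counts in WT replicates 1, 2 and 3. As CPM these were 1151, 873 and 1034 in Dicer1-ifKO and 908, 903 and 1226 in WT. The lowest library was a Dicer1-ifKO library and the highest a WT library, with the others between them. The log2 change was 0.01 ± 0.16 (SE, edgeR adjusted p = 0.99) with a 95% interval from -0.33 to 0.35, and it was below 0 without Dicer1-ifKO replicate 1 (-0.0914), WT replicate 1 (-0.0540) or WT replicate 2 (-0.0527). It was 0.22 without WT replicate 3, 0.274 when the miRNA rows set the scaling, and 0.275 with miRNA rows fitted alone (edgeR unadjusted p = 0.020, adjusted p = 0.097). The ratio of miR-9-5p to miR-124-3p counts was 2.84, 2.93 and 3.07 in Dicer1-ifKO replicates 1, 2 and 3, and 2.97, 2.61 and 2.97 in WT replicates 1, 2 and 3. On the log2 scale these ratios differed by 0.05 between the genotypes (Dicer1-ifKO minus WT, two-sided exact permutation p = 0.7, adjusted p = 0.7 over 3 ratios), within the SD of 0.06 in Dicer1-ifKO and 0.11 in WT. Both guides also varied together: over the 6 libraries Pearson's r of their log2 CPM was 0.92, a description of libraries that share depth and scaling.

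mmu-miR-124-5p, the passenger arm of the same hairpins, had a lower level in every Dicer1-ifKO library than in any WT library. It had 31, 51 and 39 counts in Dicer1-ifKO replicates 1, 2 and 3, and 59, 77 and 94 counts in WT replicates 1, 2 and 3. As CPM these were 0.75, 0.96 and 0.83 in Dicer1-ifKO and 1.21, 1.603 and 2.03 in WT. The log2 change was -0.93 ± 0.23 (SE), with a 95% interval from -1.43 to -0.42, but it did not pass over all features (edgeR unadjusted p = 0.0016, adjusted p = 0.12). Without WT replicate 1 it did (log2 -1.08, edgeR adjusted p = 0.0098), in a fit that called 63 of 522 miRNA names lower (12.1%). Groups without overlap on the lower side were common among the tested miRNAs, at 34.4%, so the gap is not particular to miR-124-5p. Fitted by locus, the log2 change was -0.91, -1.23 and -0.65 on chromosomes 2, 3 and 14. The edgeR adjusted p was 0.22, 0.061 and 0.73 in the same order. With 31 to 94 counts per library miR-124-5p was the least precisely measured of the 4.

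In CPM, mmu-miR-9-3p, the minor arm of miR-9, lay above WT in every Dicer1-ifKO library. It had 1061, 886 and 755 counts in Dicer1-ifKO replicates 1, 2 and 3, and 668, 761 and 721 counts in WT replicates 1, 2 and 3. As CPM these were 25.5, 16.67 and 15.998 in Dicer1-ifKO and 13.7, 15.8 and 15.6 in WT. Dicer1-ifKO replicate 1 stood well above the rest, and the other Dicer1-ifKO libraries lay just over the highest WT library. This narrow gap depends on the scaling. The constants by which the authors scaled Dicer1-ifKO replicate 3 and WT replicate 2 are nearly equal (0.993 and 0.989). Under them the former (755 raw counts) stays below the latter (761). As a share of miRNA counts the gap remained, at 0.0317% against 0.0263%. The log2 change was 0.37 ± 0.19 (SE, edgeR adjusted p = 0.76), with a 95% interval from -0.05 to 0.79, and without Dicer1-ifKO replicate 1 it was 0.12. Of the tested miRNAs, 2.36% lay higher in Dicer1-ifKO with no overlap. When the miRNA rows were fitted alone, so that changes are relative to the miRNA pool, miR-9-3p was called higher (log2 0.61, edgeR adjusted p = 0.028), as 1 of the 17 names called higher there (3.31% of 513).

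**Figure D2:**
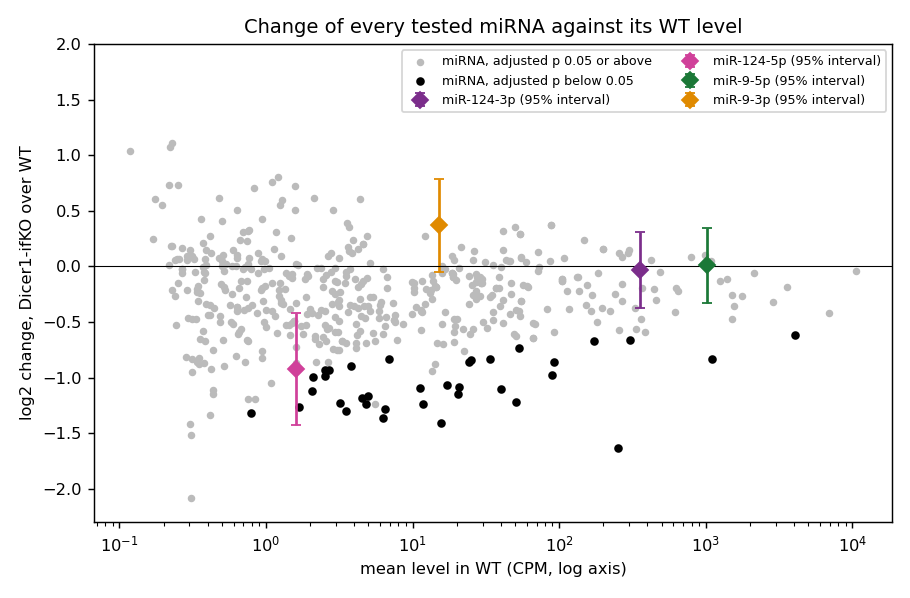
Log2 change of each of the 509 tested miRNAs (y axis, Dicer1-ifKO over WT) against its mean WT level in CPM (x axis, log scale), with the 35 called miRNAs in black and the 4 members as diamonds with 95% intervals. miR-124-3p and miR-9-5p sit at 0 among abundant miRNAs that mostly lie below it, miR-124-5p lies among the called miRNAs without being called, and miR-9-3p lies above 0.

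Shares of the summed miRNA counts, a comparison added after the data were seen, set each member against the miRNA pool. miR-9-5p made up 2.064%, 1.695% and 2.046% of the miRNA counts in Dicer1-ifKO replicates 1, 2 and 3, and 1.63%, 1.501% and 1.788% in WT replicates 1, 2 and 3. miR-124-3p made up 0.73%, 0.58% and 0.67% in Dicer1-ifKO and 0.55%, 0.57% and 0.60% in WT. For both, 1 Dicer1-ifKO library lay inside the WT range, and neither difference could be told from the spread (two-sided exact permutation p = 0.2 for each, adjusted p = 0.2 over the 4 members). miR-9-3p made up 0.0458%, 0.0323% and 0.0317% in Dicer1-ifKO and 0.0245%, 0.0263% and 0.0227% in WT, a ratio of means of 1.49. miR-124-5p made up 0.0013%, 0.0019% and 0.0016% in Dicer1-ifKO and 0.0022%, 0.0027% and 0.0030% in WT, a ratio of means of 0.62. For these minor arms the groups did not overlap, and the exact permutation p was 0.1 for each, the smallest that 3 against 3 libraries allow, with an adjusted p of 0.2 over the 4 members. How many of all miRNA names lay apart on this scale was not counted. The gaps are therefore not taken as particular to these arms. The difference in the miR-9-3p share, 0.0121 percentage points, was 0.0075 without Dicer1-ifKO replicate 1.

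The balance of the arms within a hairpin does not depend on how libraries are scaled. For miR-124 there were 544, 311 and 408 counts of the 3p arm for each count of the 5p arm in Dicer1-ifKO replicates 1, 2 and 3, against 254, 216 and 203.7 in WT replicates 1, 2 and 3. Every Dicer1-ifKO library was thus more one-sided than any WT library. How often the arm ratios of other hairpins lay apart in this way was not counted. The log2 ratio of 5p to 3p (0.5 added to each count) was -8.66 ± 0.40 in Dicer1-ifKO and -7.79 ± 0.16 in WT (SD, n = 3 each), a difference of -0.87 (two-sided exact permutation p = 0.1, the smallest possible, adjusted p = 0.3 over 3 ratios). For miR-9 there were 45.1, 52.4 and 64.6 counts of the 5p arm for each count of the 3p arm in Dicer1-ifKO, against 66.5, 57.0 and 78.8 in WT. These ranges overlapped. The log2 ratio of 3p to 5p was -5.74 ± 0.26 in Dicer1-ifKO and -6.06 ± 0.23 in WT, a difference of 0.32 (exact permutation p = 0.2, adjusted p = 0.3).

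The same balance was tested in 1 fit over the 141 hairpin names with both arms tested (edgeR's diffSpliceDGE, a comparison chosen after the data were seen). Not all 141 names are separate hairpins, as some hold nearly the same counts, such as miR-126a and miR-126b. The arm balance was called changed in 10 of the 141 names (7.09%), with the minor arm lower against the major arm in 4 (2.84%) and higher in 6 (4.26%). miR-124 was 1 of the 4, with a fitted change of its 5p arm of -0.86 on the log2 scale (edgeR adjusted p = 0.0067). The call was lost without Dicer1-ifKO replicate 1 (log2 -0.68, adjusted p = 0.051) and without Dicer1-ifKO replicate 3 (log2 -0.85, adjusted p = 0.057). miR-9 did not pass, with a fitted change of its 3p arm of 0.32 (edgeR adjusted p = 0.20), which was 0.19 without Dicer1-ifKO replicate 1. Over all 141 hairpin names the change of the minor arm minus that of the major arm had a median of -0.0040, with a 10th percentile of -0.56 and a 90th percentile of 0.63. miR-124, at -0.89, lay below the 10th percentile, and miR-9, at 0.36, between them.

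**Figure D3:**
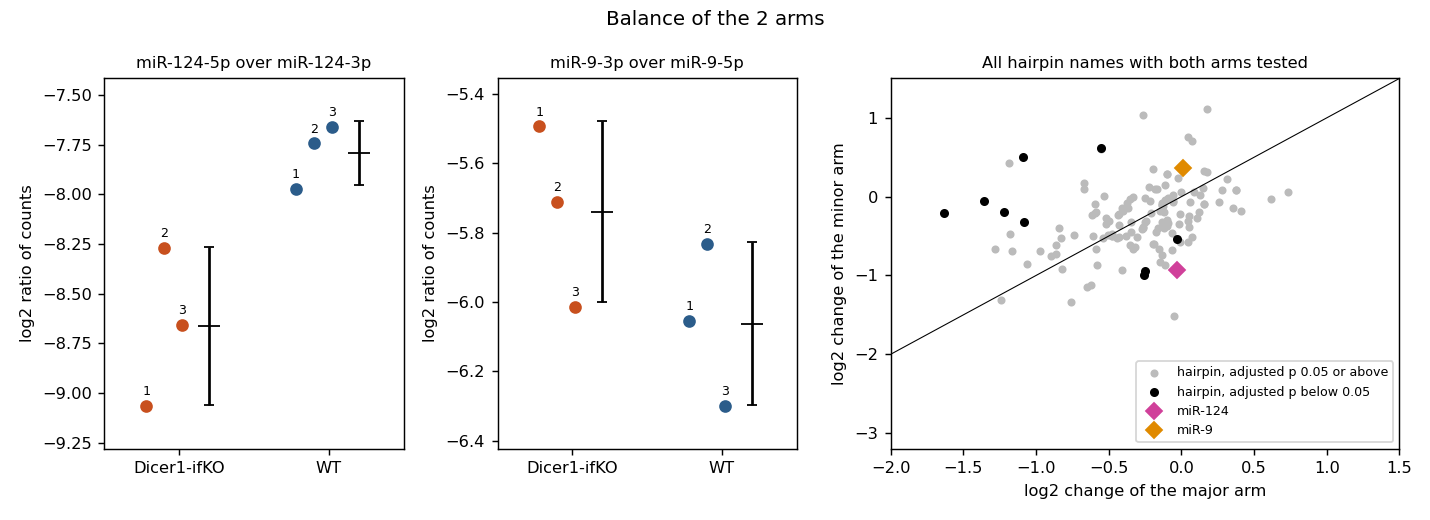
Left and middle, log2 ratio of the minor to the major arm in each library for miR-124 and miR-9, Dicer1-ifKO in orange and WT in blue, numbered by replicate, with mean and SD. Right, log2 change of the minor arm against that of the major arm (Dicer1-ifKO over WT) for 141 hairpin names, where the line marks equal change; miR-124 lies 0.89 below it with a major arm at -0.03.

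Other neuron-enriched miRNAs mostly lay below 0 without passing the test. Of 19 listed (members left out), 18 were tested, 2 were lower and 0 higher by edgeR over all features. Among all tested miRNA names 6.88% were lower and 0% higher. The number called in the list was 1 without Dicer1-ifKO replicate 1, WT replicate 2 or WT replicate 3. It was 0 without Dicer1-ifKO replicate 2 or 3, and 3 without WT replicate 1. In this list 16 of 18 changes were negative and the median of all 18 was -0.42 on the log2 scale, beside 76.4% and -0.25 among all tested miRNA names. The listed names are not all separate, as both arms of miR-132 and miR-212, which share a transcript, are among them. The 2 that fell were miR-129-5p, at 18.7 ± 1.11 CPM in Dicer1-ifKO and 40.1 ± 1.98 CPM in WT (edgeR adjusted p = 0.0047), and miR-212-3p, a product of the activity-regulated miR-132 and miR-212 transcript, at 31.7 ± 2.93 CPM in Dicer1-ifKO and 52.8 ± 4.96 CPM in WT (SD, n = 3 each; edgeR adjusted p = 0.047). miR-128-3p, a neuronal miRNA of about the level of miR-9-5p, stood at 1085 ± 70.0 CPM in Dicer1-ifKO and 1503 ± 152 CPM in WT, with no overlap and a log2 change of -0.47 (edgeR adjusted p = 0.15). A gap on the lower side was common, at 34.4% of tested miRNA names. miR-138-5p, known from dendritic spines and about as abundant as miR-124-3p, had a log2 change of -0.19 ± 0.19 (SE). miR-153-3p (log2 0.36) and miR-135a-5p (0.51) were the 2 above 0, and neither passed. With miRNA rows fitted alone, miR-135a-5p was called higher (log2 0.77, edgeR adjusted p = 0.028), beside the lower calls of miR-129-5p and miR-212-3p. No test compared miR-124-3p or miR-9-5p with these miRNAs.

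Summed levels of miRNAs typical of other cells are given beside miR-9-3p, whose log2 change was 0.12 without Dicer1-ifKO replicate 1, against 0.37 with it. In Dicer1-ifKO replicate 1, the highest for miR-9-3p, the 4 listed oligodendrocyte miRNAs (miR-219a-5p, miR-219a-2-3p, miR-338-3p and miR-338-5p) summed to 349 CPM, against 258 and 257 CPM in Dicer1-ifKO replicates 2 and 3 and 217 to 341 CPM in WT. The 4 vascular miRNAs in the files (of miR-126, miR-143 and miR-145) summed to 616 CPM there, to 455 and 456 CPM in the other Dicer1-ifKO libraries, and to 357 to 590 CPM in WT. The 6 microglial and leukocyte miRNAs in the files ranged from 199 to 226 CPM in Dicer1-ifKO and from 163 to 199 CPM in WT, and the 7 astrocyte-enriched ones from 7609 to 8683 CPM in Dicer1-ifKO and from 9385 to 11527 CPM in WT. The 3 erythrocyte miRNAs ranged from 96.6 to 116 CPM in Dicer1-ifKO and from 110 to 120 CPM in WT, and the 6 of choroid plexus and epithelium from 221 to 240 CPM in Dicer1-ifKO and from 321 to 349 CPM in WT. The genotypes did not overlap in the astrocyte-enriched and the choroid plexus sums, both lower in Dicer1-ifKO. The sum of the listed neuron-enriched miRNAs also lay apart, at 1892 to 2304 CPM in Dicer1-ifKO and 2494 to 3063 CPM in WT. Of single tested miRNA names, 34.4% lay lower without overlap, so such gaps are not particular to these lists. Of the choroid plexus sum nearly all was miR-204-5p, at 224 CPM in Dicer1-ifKO and 332 CPM in WT, and the other 5 names overlapped. Of the astrocyte sum most was miR-26a-5p, at 5201 CPM in Dicer1-ifKO and 6968 CPM in WT, and of the other 6 names only miR-23b-3p did not overlap. Of the microglial and leukocyte names, miR-150-5p (173 CPM in Dicer1-ifKO and 147 CPM in WT) lay higher in Dicer1-ifKO without overlap. So did miR-142-3p, with 7 to 34 counts per library. Among all tested miRNA names, 2.36% lay higher without overlap. No miRNA listed for these other cells was called, and none in the files was at 0. WT replicate 3, the highest WT library in the oligodendrocyte (341 CPM) and vascular (590 CPM) sums, held 15.6 CPM of miR-9-3p, inside the WT range. The part of these cells in the levels of the members was not tested.

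The miRNAs whose levels followed each member most closely over the 6 libraries were taken from 357 others with a mean of at least 50 counts, by Pearson's r of log2 CPM. For miR-124-3p they were miR-376c-3p (r = 0.95), the rows miR-873a-5p and miR-873b, which hold the same counts (0.94 each), miR-19b-3p (0.94) and miR-23a-3p (0.93). For miR-9-5p they were miR-488-3p (0.96), miR-30a-5p (0.96), miR-106b-5p (0.96), miR-879-5p (0.95) and miR-329-5p (0.94), of which miR-30a-5p was as abundant as miR-9-5p, at 1068 CPM in Dicer1-ifKO and 994 CPM in WT. miR-124-5p was matched by miR-434-3p, miR-344d-3-5p and miR-676-3p (0.98 to 0.99) and by the minor arms miR-138-1-3p and miR-873a-3p (0.98 each). These 5 had log2 changes from -0.74 to -0.26, and none was called. For miR-9-3p the values were lower, at 0.91 for the myeloid miR-142-5p, 0.84 for miR-219a-5p of oligodendrocytes and for the row miR-219b-3p, and 0.83 for miR-99a-3p and miR-540-5p. Between the 2 arms of a hairpin r was 0.23 for miR-124 and 0.45 for miR-9. The values above were picked as the 5 highest of 357, so they are no measure for these 2 pairs. Arm pairs of other hairpins were not compared in this way. With 6 libraries and 357 miRNAs compared, values of this size describe these libraries only.

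**Figure D4:**
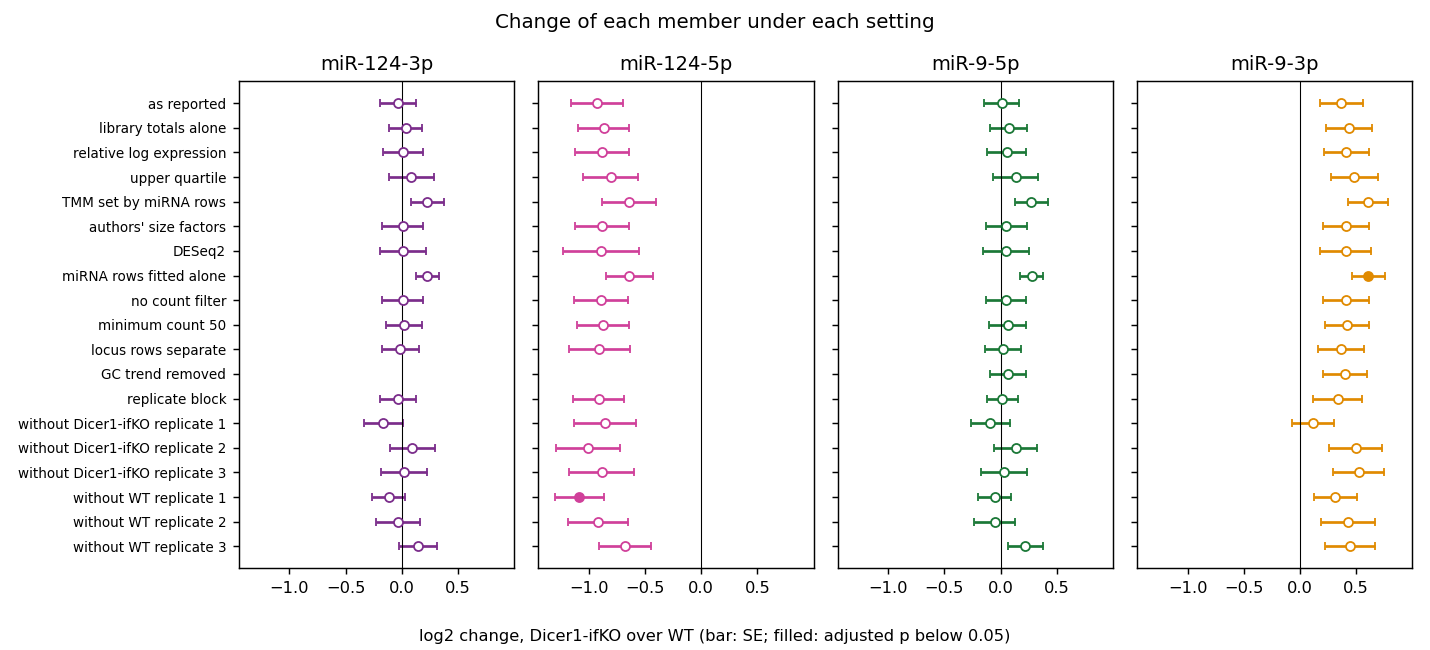
Log2 change of each member (x axis, Dicer1-ifKO over WT) with its SE under every alternative scaling, test, filter and leave-one-out fit (rows), filled where the adjusted p is below 0.05. Separate loci are drawn as the locus with the most counts of each member. As drawn, miR-124-5p stays between -1.08 and -0.64, miR-9-3p between 0.12 and 0.61, and miR-124-3p and miR-9-5p stay within 0.28 of 0 on either side. A miR-124-5p locus that is not drawn, on chromosome 3, had a log2 change of -1.23.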

How the data were processed

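The deposited files share 109108 features, each with a GRCm38 position, a raw count and a normalized count. The raw counts are whole reads per feature as deposited. The normalized column is a signal the authors made by multiplying a library's raw counts by 1 constant, and only those constants were used. Without roles, BWA, CASAVA 1.8.2, DESeq2 and SAMtools 0.1.18 are named per the submitters' processing notes. Which counter was used, with which strand setting and rule for multi-locus reads, is not given in the sources used here. Groups and replicate numbers came from the sample titles.

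Rows of 1 miRNA name were summed, which turned 2035 rows into 1900 names. Other rows of 1 gene name and chromosome with identical counts in all libraries were counted once, which removed 13606 rows with counts. The test was edgeR 4.0.16 in R 4.3.3 (filterByExpr with minimum count 10, TMM, glmQLFit with robust estimation, glmQLFTest, two-sided) over 6502 features. The SE was derived from the F statistic. An exact permutation test over the 6 libraries (two-sided) was used for ratios and shares. The design text gives 12 mice per genotype, while 3 pools of 3 make 9. Within a genotype the libraries differed beyond counting noise, and the intervals cover these pools only.

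Named were the members, rows overlapping them, names sharing their seeds, the listed neuron-enriched miRNAs, and the 5 miRNAs closest to each member by Pearson's r over the libraries. Members and lists were chosen with earlier results of these data known. The scripts were tested on simulated data. Alternatives were other scalings, DESeq2 1.42.0, other filters, separate loci, a GC trend removed by loess (span 0.75), the replicate block and leaving out each library. For separate loci, the change given for a member is that of its locus with the most counts. The arm fit and the shares of miRNA counts were added after the data were seen.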

Additional observations from a re-analysis of the deposited data

How the results depend on the processing

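No alternative called miR-124-3p or miR-9-5p. The log2 change of miR-124-3p, -0.03 in the fit of all features, was 0.0328 on library totals, 0.0102 with relative log expression factors, 0.0853 with upper quartile factors, 0.227 under TMM of the miRNA rows, 0.0084 with the authors' size factors, 0.0059 with DESeq2, 0.228 with miRNA rows fitted alone, 0.0063 without a count filter, and 0.0189 with a minimum count of 50. Leaving out each library moved it between -0.16 and 0.14, and miR-9-5p between -0.0914 and 0.22. miR-124-5p ran from -1.08 to -0.68 when a library was left out and was called only without WT replicate 1. With all libraries kept and loci summed, its adjusted p ran from 0.072 to 0.42 (edgeR or DESeq2). miR-9-3p was called only with miRNA rows fitted alone (0.61, edgeR adjusted p = 0.028), and it ran from 0.12 to 0.52 when a library was left out. Of the 4 members, 1 was called with miRNA rows fitted alone, where 52 of 513 names were, and 0 to 1 when a library was left out, where the 1 came from a fit that called 63 of 522 names. TMM of the miRNA rows moved the median of the miRNA names to 0.01 and that of other features to 0.22, against -0.25 and -0.03 before. GC values were had for 88.2% of 509 tested miRNA names and for the miR-9 members, whose changes were 0.07 and 0.40 with the GC trend removed, and that alternative was not run for miR-124.

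The number of called miRNAs, 35 in all features, was 15 on library totals, 19 with upper quartile factors, 7 under TMM of the miRNA rows, 10 with the GC trend removed, and 1 to 63 when a library was left out. The number of other neuron-enriched miRNAs called, 2 in all features, was 1 on library totals, 1 with relative log expression, upper quartile or the authors' factors, 0 under TMM of the miRNA rows, 1 with the GC trend removed, 3 with miRNA rows fitted alone (2 lower, 1 higher), 3 with loci separate (of which 2 are loci of miR-129-5p), and 0 to 3 when a library was left out. With the replicate number as a block, 3 miRNAs were called, 0 of them in that list and 0 of them members. In the arm fit with that block, miR-124 was again called (-0.87, edgeR adjusted p = 0.0069). miR-9 was again not called there (0.32, edgeR adjusted p = 0.11). Over all tested features, the deviations of same-numbered libraries had r = -0.18, 0.07 and -0.16 for numbers 1, 2 and 3. Over miRNA names r was -0.05, 0.25 and -0.26 in the same order. Dicer1-ifKO replicate 1 was closest to WT replicate 3 (r = 0.20 over all tested features and 0.42 over miRNA names). With 3 libraries of each genotype, these values cannot show whether same-numbered libraries share more than a number. The arm ratio of miR-124 kept its direction in all 10 alternatives (log2 difference of -1.07 to -0.67 when a library was left out), as did that of miR-9 (0.20 to 0.46). The ratio of miR-9-5p to miR-124-3p ran from -0.0131 to 0.0791 when a library was left out. The fitted arm change of miR-124 ran from -1.08 to -0.68 when a library was left out. The few counts of miR-124-5p limit every statement on it.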
